A study of Zea mays with 8 samples.

Results

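The region described here is the stretch of maize (Zea mays) chromosome 4 around HDA108, a gene for a histone deacetylase. Its members are the genes whose start lies between 46000000 and 180000000 (B73 RefGen_v3) and that reached at least 1 FPKM in at least 1 group of anthers. HDA108 itself (GRMZM2G136067) and GRMZM2G068506 were left out by rule. This gave 974 members among the 24360 genes tested in all. The window holds 1735 genes, of which 759 stayed below 1 FPKM in all groups.

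RNA was measured in anthers of field-grown plants homozygous for the mutant allele (hda108/hda108, written hda108 here) and of wild-type plants (WT). The 4 groups were hda108 post-meiotic, WT post-meiotic, hda108 mitotic-stage and WT mitotic-stage anthers, with 2 libraries each. Every library was from anthers pooled over several tassels. Below, "after meiosis" is short for the post-meiotic groups, and it implies no order of the 2 stages. FPKM counts mapped fragments scaled for transcript length and for the size of the library, and each gene has 1 deposited value in each group. The spread between the 2 libraries is therefore not known, no difference below has a replicate check, and none has a p-value. Differences are log2(FPKM + 1) in hda108 minus that in WT, and folds are ratios of FPKM. Where such a difference reached 2 in size, the gene is called higher or lower in hda108, which is the 4-fold rule below. The pseudocount of 1 makes this scale understate the change of weakly expressed genes.

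Histone deacetylases remove acetyl groups from histones, and chromatin with fewer acetyl groups is in general less transcribed. Genes that lie near each other on a chromosome are inherited together unless a crossover parts them. Maize lines differ widely from each other in sequence and in which genes they carry. The labels do not give the line in which the mutant allele arose or how the WT plants were related to the mutants. An effect of the mutation and any other difference between the 2 sets of plants at linked genes therefore cannot be told apart here.

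HDA108 had 4.10 FPKM in hda108 and 12.3 FPKM in WT post-meiotic anthers, and 4.30 FPKM in hda108 and 6.43 FPKM in WT mitotic-stage anthers. After every group was rescaled to a sum of 1000000, the mitotic difference was 0.66 log2, above WT. The FPKM of all genes summed to 701133 in hda108 and 1069800 in WT post-meiotic anthers, and to 505427 in hda108 and 1284190 in WT mitotic-stage anthers. Of 12 pollen markers, 10 were found and none was at 0. They summed to 3776 FPKM in hda108 and 22355 FPKM in WT post-meiotic anthers, and to 5334 FPKM in hda108 and 36275 FPKM in WT mitotic-stage anthers. In both stages 6 of these 10 markers were lower in hda108 by the 4-fold rule. In WT their sum was larger in mitotic-stage than in post-meiotic anthers, though EXPB1 and ABP3 were lower at the mitotic stage. The 5 tapetum and anther wall markers found of 12 summed to 85.2 FPKM in hda108 and 138 FPKM in WT after meiosis, and to 55.9 FPKM in hda108 and 88.0 FPKM in WT at the mitotic stage. These markers did not move together. At both stages ms23, ms32 and ms26 were lower in hda108, and the less abundant ms8 and ocl4 were higher. After meiosis ms8 had 7.02 FPKM in hda108 and 0.608 FPKM in WT. Green-tissue markers, found for 6 of 10 symbols, summed to 506 FPKM in hda108 and 309 FPKM in WT after meiosis, and to 203 FPKM in hda108 and 125 FPKM in WT at the mitotic stage. Much of this was rca1, with 274 FPKM in hda108 and 130 FPKM in WT after meiosis. At both stages rca1, ME1, rbcS-m3 and ppdk1 were higher in hda108. At the mitotic stage cab48 and both pep1 models were lower, and the pep1 model GRMZM2G083841 was also lower after meiosis. All of these lower values were under 1 FPKM. None of the pollen, anther wall or green-tissue markers found lies in the region, and their part in the results below was not tested. In whole anthers, fewer cells of a type and less RNA per cell cannot be told apart.

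The region held genes that were measured in WT and listed at 0 in hda108. A gene was called read in WT alone when it had at least 1 FPKM in both WT groups and less than 0.1 FPKM in both hda108 groups, and read in hda108 alone in the reverse case. Of the 974 members, 4 were read in hda108 alone and 15 in WT alone, where 0.156% and 0.0985% of all genes tested were. All 15 genes read in WT alone were listed at exactly 0 in both hda108 groups. An exact 0 can be a failed estimate as well as an absence of mapped fragments, so these genes are described only as listed at 0.

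The highest single value among them was that of GRMZM2G140774 (chromosome 4, 168149331 to 168150275), a transcribed pseudogene in RefSeq. It was listed at 0 in both hda108 groups and had 7.93 FPKM in WT post-meiotic and 73.5 FPKM in WT mitotic-stage anthers. GRMZM2G495171 (82061216 to 82062221) was listed at 0 in both hda108 groups, against 49.7 FPKM in WT post-meiotic and 65.7 FPKM in WT mitotic-stage anthers. GRMZM2G140774 was thus the higher of the pair in WT mitotic-stage anthers, and GRMZM2G495171 in WT post-meiotic anthers.

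AC194356.3_FG002 (138547275 to 138547824), a gene model named after a sequenced clone, was listed at 0 in both hda108 groups and had 21.2 FPKM in WT post-meiotic and 64.7 FPKM in WT mitotic-stage anthers. AC205664.3_FG001 (61122833 to 61123178) was listed at 0 in both hda108 groups and had 15.2 and 40.5 FPKM in the same WT groups. Both were higher in mitotic-stage than in post-meiotic anthers of WT. GRMZM2G125823 (173395871 to 173400537), listed at 0 in both hda108 groups, had 9.60 FPKM in WT post-meiotic and 13.7 FPKM in WT mitotic-stage anthers. GRMZM2G181354 (175758502 to 175761094), another transcribed pseudogene, was listed at 0 in both hda108 groups, against 12.0 and 13.45 FPKM in WT. AC186512.3_FG007 (163706516 to 163707559) was likewise listed at 0 in both hda108 groups, against 6.54 and 9.26 FPKM in WT. The other 8 genes had between 1.17 FPKM, in AC208920.3_FG001, and 6.94 FPKM, in GRMZM2G086190, in the WT groups. Of the 15 genes, 10 were lower in hda108 by the 4-fold rule at both stages and 1 missed it at both. That 1 gene, GRMZM2G044818, was listed at 0 in both hda108 groups and had 2.69 and 2.85 FPKM in WT, and its differences were -1.88 and -1.95.

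**Figure D1:**
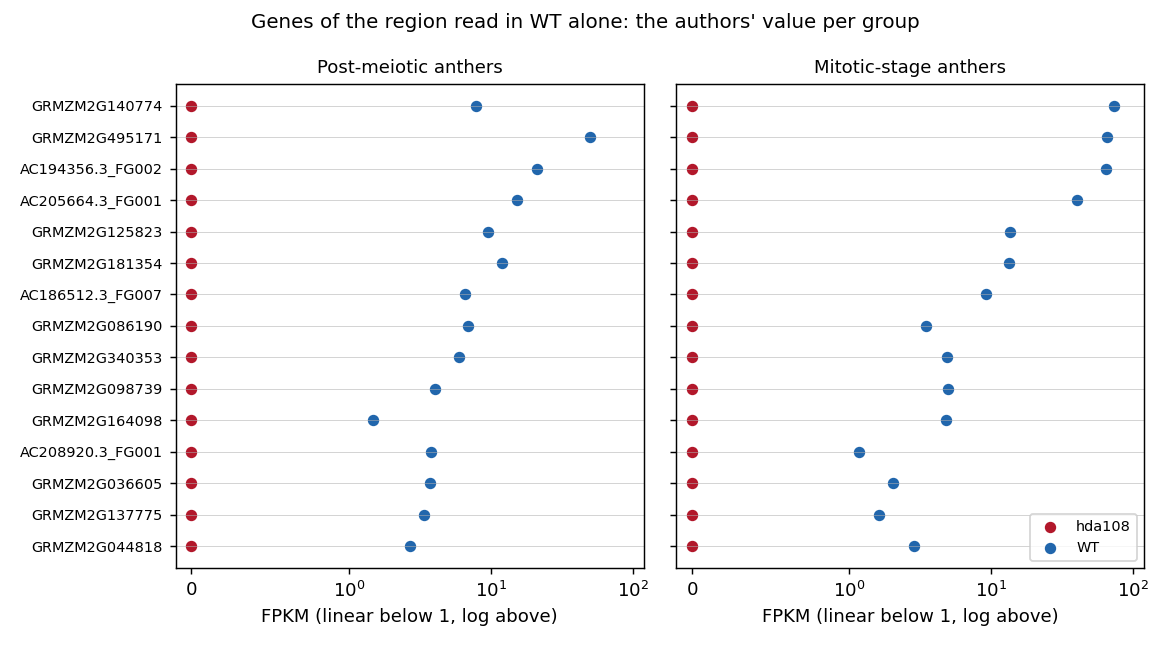
FPKM of the 15 genes of the region read in WT alone, in post-meiotic (left) and mitotic-stage (right) anthers; each point is the authors' value for a group of 2 libraries, hda108 in red and WT in blue, on an axis that is linear below 1 and logarithmic above. All hda108 points lie at 0, and the WT points lie between 1.17 and 73.5 FPKM.

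Such genes were rare elsewhere. On the 9 other chromosomes 7 of 21746 genes were read in WT alone, 0.0322%, against 1.54% of the region, and their highest WT value was 4.26 FPKM. No other chromosome had more than 3. The rest of chromosome 4 had 2 among 1470 genes, GRMZM2G048635 near the start of the chromosome (4057994 to 4061542) and AC197274.4_FG010 just past the end of the window (180294644 to 180295845). Genes read in hda108 alone made up 0.411% of the region, 0.272% of the rest of chromosome 4 and 0.138% of the 9 other chromosomes, with 30 such genes there. On single chromosomes that share ran between 0.0693% and 0.220%.

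**Figure D2:**
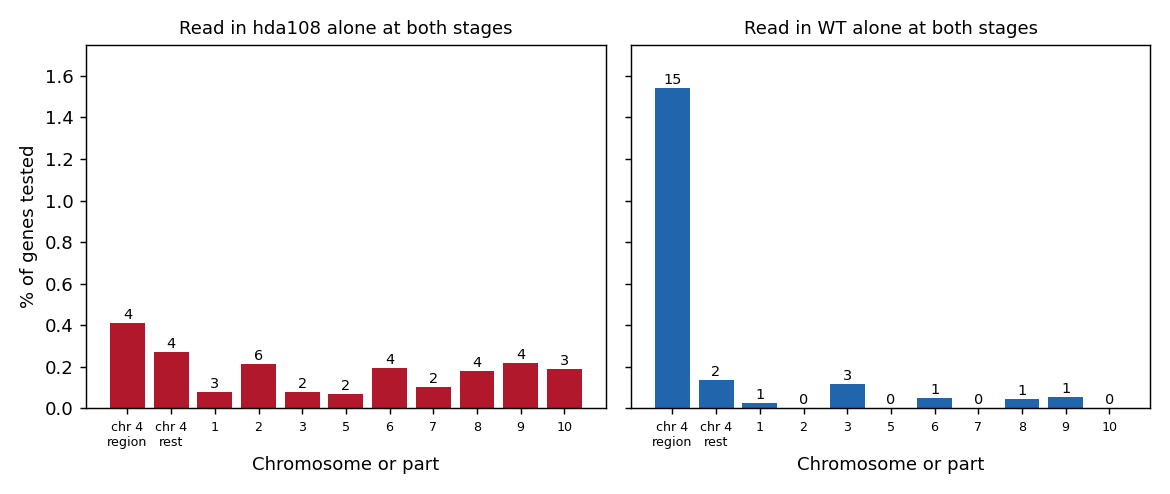
Share of the genes tested that were read in hda108 alone (left) and in WT alone (right) at both stages, for the region, the rest of chromosome 4 and each other chromosome; the number above each bar is the count of genes. The tallest bar is that of the region for genes read in WT alone, 15 genes, while 7 were found on the other 9 chromosomes together.

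In all, 22 members were listed at 0 in both hda108 groups, 2.26%, against 0.216% on the 9 other chromosomes. Of these 22, 15 are the genes read in WT alone, so the count repeats them and adds 7. Members listed at 0 in both WT groups numbered 8, 0.821%, against 0.464%. A further 6 members with at least 1 FPKM in both WT groups were listed at 0 at 1 hda108 stage, of 815 such members, and on the 9 other chromosomes 41 of 18193 were.

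The 4 genes read in hda108 alone were less abundant. GRMZM5G853712 (87196451 to 87196652) had 7.47 FPKM in hda108 post-meiotic and 1.60 FPKM in hda108 mitotic-stage anthers and was listed at 0 in both WT groups. GRMZM2G425999 (55109835 to 55113173) had 3.25 and 1.68 FPKM in the same hda108 groups and was listed at 0 in WT. GRMZM2G119717 and GRMZM5G895648 had between 1.10 and 1.79 FPKM in hda108 and were listed at 0 in both WT groups. All 4 were higher in post-meiotic than in mitotic-stage anthers of hda108, and they lay between 55109835 and 100975659.

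No gene read in WT alone had another such gene as its nearest tested neighbour. Of their 29 distinct nearest tested neighbours, 13 stayed within a difference of 1 at both stages, 44.8%, against 62.7% of all genes tested. By the 4-fold rule 3 were lower at both stages, 10.3%, against 3.57% of all genes, and 1 was higher. GRMZM2G181354 lay 5.01 kb and 4.03 kb from GRMZM2G181336 and GRMZM2G181359, which had 71.0 and 61.5 FPKM in hda108 and 81.3 and 58.7 FPKM in WT post-meiotic anthers. GRMZM2G125823 lay 0.661 kb from GRMZM2G125838, which had 31.3 FPKM in hda108 and 77.3 FPKM in WT after meiosis and 52.1 FPKM in hda108 and 132 FPKM in WT at the mitotic stage. Beside these 2 genes, genes measured in both genotypes thus lay within a few kb.

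In 5 places of the region, chosen after the values were seen, consecutive tested genes were all below 0.2 FPKM in both hda108 groups. The longest ran over 4 genes and 963 kb, between 138547275 and 139510295. Its first gene is AC194356.3_FG002, given above. GRMZM2G702599, the next, was listed at 0 in both hda108 groups, against 0.963 FPKM in WT post-meiotic and 8.28 FPKM in WT mitotic-stage anthers. GRMZM2G086190, a protein-coding gene in RefSeq, was listed at 0 in both hda108 groups and had 6.94 and 3.48 FPKM in WT. GRMZM2G094083 was listed at 0 in hda108 post-meiotic and had 0.131 FPKM in hda108 mitotic-stage anthers, against 4.46 and 2.97 FPKM in WT. The other 4 places held 2 genes each, among them GRMZM2G340403 and GRMZM2G340353 within 5.77 kb. The rest of chromosome 4 held 1 such place, which begins with AC197274.4_FG010. Each of these places held at least 1 gene read in WT alone, so they partly repeat genes counted above. Such places were not counted on the other chromosomes, so whether 5 is more than is found there was not tested.

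Genes read in WT alone also shared features that were not used to choose them. Their median span was 1006 bp, against 3432 bp for all members. RefSeq holds a gene for 3 of the 15, 20%, against 66.2% of the members and 66.3% of genes on the 9 other chromosomes. Of those 3, 2 are transcribed pseudogenes and 1 is protein coding. Gene models named after a clone made up 4 of the 15, 26.7%, against 4.11% of the members. The 7 genes read in WT alone on the 9 other chromosomes were alike in this, with a median span of 932 bp, 1 RefSeq match and 3 clone names. Short spans and few RefSeq matches were not particular to such genes. Members lower at both stages had a median span of 1872 bp and 40% in RefSeq, and those higher at both stages 2148 bp and 33.3%. The 4 read in hda108 alone had 1781 bp and 0 in RefSeq. Clone names made up 5.45% of the lower members and 0% of the higher ones.

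By the 4-fold rule, post-meiotic anthers had 19 members higher and 79 lower in hda108, 1.95% and 8.11% of the region, where 1.68% and 4.47% of all genes tested were. On the 9 other chromosomes the share of lower genes ran between 3.63% on chromosome 1 and 5.01% on chromosome 8. In mitotic-stage anthers 18 members were higher and 98 lower, 1.85% and 10.1%, where 1.52% and 8.12% of all genes tested were, and the lower share on other chromosomes reached 8.81%. The rest of chromosome 4 was near the region at the mitotic stage, with 1.84% higher and 9.73% lower, and had 2.04% higher and 5.37% lower in post-meiotic anthers. After rescaling, post-meiotic anthers had 39 members higher and 55 lower, 4.004% and 5.65%, against 3.38% and 2.72% of all genes. Mitotic-stage anthers then had 130 higher and 34 lower, 13.3% and 3.49%, against 13.7% and 2.47% of all genes. Rescaling moved the median of all genes by more than 0.1, to 0.50 log2 in post-meiotic and 1.05 in mitotic-stage anthers. As deposited, the region's median was -0.09 in post-meiotic and -0.11 in mitotic-stage anthers, against -0.08 and -0.05 for the rest of chromosome 4 and -0.03 and -0.02 for all genes. Taken relative to all genes, it was -0.06 and -0.09 as deposited and -0.05 and -0.09 after rescaling. Most members differed little: 567 of 974, 58.2%, stayed within a difference of 1 at both stages, against 63.1% on the 9 other chromosomes.

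**Figure D3:**
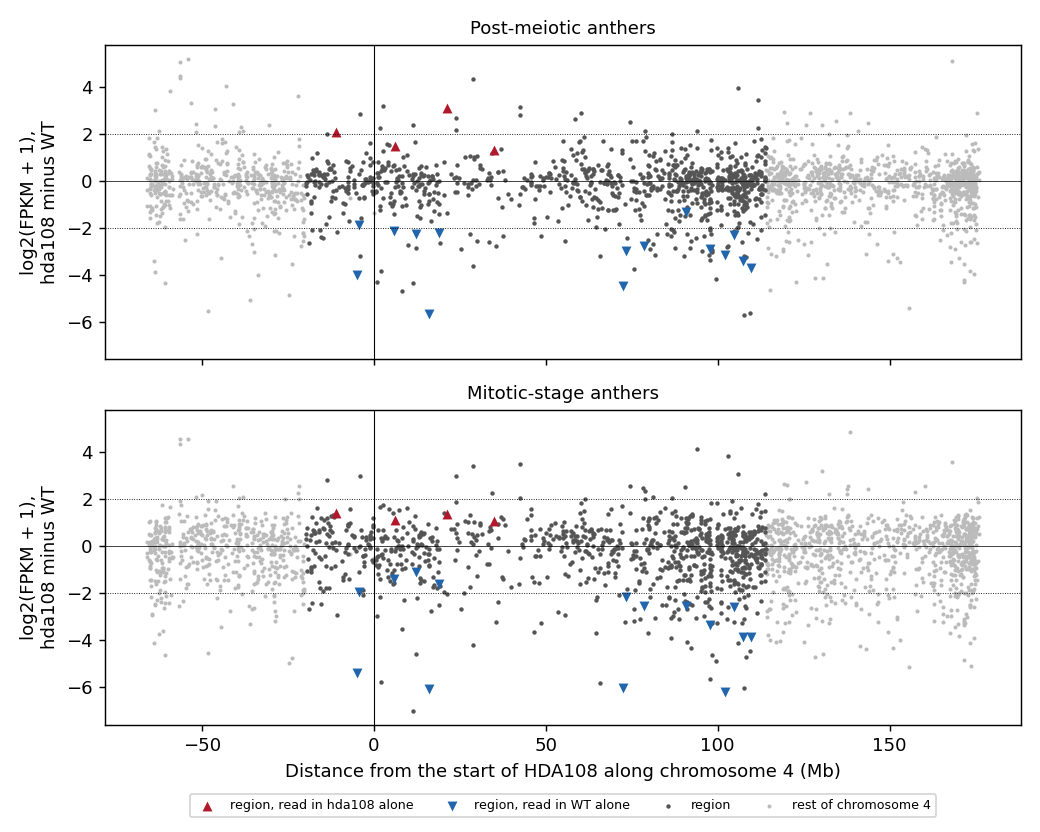
Difference in log2(FPKM + 1), hda108 minus WT, of every tested gene of chromosome 4 against its distance in Mb from the start of HDA108 (vertical line), in post-meiotic (top) and mitotic-stage (bottom) anthers; dark points are the 974 members, light points the rest of the chromosome, triangles the 4 genes read in hda108 alone and the 15 read in WT alone, and dotted lines the 4-fold rule. Most members lie near 0 on both sides of HDA108. The genes read in WT alone also lie on both sides, with a stretch between that holds none and that was not tested.

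At both stages 9 members were higher and 55 lower in hda108, 0.924% and 5.65% of the region, where 0.722% and 3.57% of all genes tested were. The lower share was 4.15% in the rest of chromosome 4 and ran between 3.08% and 3.98% on the other chromosomes. The higher share was 1.02% in the rest of chromosome 4, above the region, and ran between 0.447% and 1.08% on the other chromosomes. No member was past the rule in opposite directions at the 2 stages. The 10 genes read in WT alone that pass the rule are among the 55, and without all 15 such genes, a count chosen after seeing the data, 45 of 959 members were lower, 4.69%. After rescaling 24 of the 55 and all 9 of the 9 remained past the 4-fold rule.

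The lower member with the largest difference common to both stages was GRMZM2G344376 (173587296 to 173587800). It had 8.72 FPKM in hda108 and 513 FPKM in WT post-meiotic anthers, 58.8-fold lower in hda108. Mitotic-stage anthers had 7.90 FPKM in hda108 and 572 FPKM in WT, 72.4-fold lower. GRMZM2G301647 (175306258 to 175309558), protein coding in RefSeq, had 0.783 FPKM in hda108 and 86.2 FPKM in WT after meiosis, and 16.3 FPKM in hda108 and 383 FPKM in WT at the mitotic stage. GRMZM2G475702 (77507996 to 77510091) had 3.19 FPKM in hda108 and 84.3 FPKM in WT after meiosis, and 1.5 FPKM in hda108 and 316 FPKM in WT at the mitotic stage, 211-fold lower. These 3 genes were abundant in WT at both stages, unlike most genes read in WT alone. GRMZM2G111774 (165527642 to 165529129) had 0.211 FPKM in hda108 and 21.2 FPKM in WT after meiosis, and was listed at 0 in hda108 against 28.1 FPKM in WT in mitotic-stage anthers. GRMZM2G495171 and AC194356.3_FG002, described above, complete the 6 named by rule. Over the 44 lower members with a value above 0 in hda108 at the stage in question, the fold ran between 4.39 and 110 after meiosis and between 4.94 and 211 at the mitotic stage.

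Among the 9 higher members, GRMZM2G043460 (94883051 to 94884041) had 44.9 FPKM in hda108 and 1.29 FPKM in WT post-meiotic anthers, 34.8-fold higher. At the mitotic stage it had 9.60 FPKM in hda108 and was listed at 0 in WT. GRMZM2G431114 (62013287 to 62016489), a transcribed pseudogene, had 7.06 FPKM in hda108 and 0.125 FPKM in WT after meiosis, and 7.37 FPKM in hda108 and 0.0478 FPKM in WT at the mitotic stage. GRMZM2G099297 (171800261 to 171802016) was 74.0-fold higher after meiosis, with 18.3 FPKM in hda108 and 0.248 FPKM in WT, and 28.1-fold higher at the mitotic stage. GRMZM2G047763 was 11.1-fold and 25.5-fold higher, and GRMZM2G074307 was 9.08-fold and 11.3-fold higher. GRMZM2G104768, the most abundant of the 9, had 148 FPKM in hda108 and 25.3 FPKM in WT after meiosis, and 112 FPKM in hda108 and 18.3 FPKM in WT at the mitotic stage.

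In 7 cases 2 genes past the rule at both stages were next to each other among the tested genes. Both were lower in 4 of these pairs and both higher in 1, and in 2 the directions were opposite. Past the rule at both stages were 6.57% of the members, against 4.29% of all genes tested. No count of such pairs is given for genes outside the region, so whether 7 is more than elsewhere was not tested. GRMZM2G702522 and GRMZM2G047763, 5.05 kb apart, were both higher. AC186512.3_FG007 and GRMZM2G552956, 4.50 kb apart, were both lower, and GRMZM2G552956 had 19.6 FPKM in hda108 and 213 FPKM in WT after meiosis. In contrast, the higher gene GRMZM2G043460 lay 20.3 kb from GRMZM2G043575, which had 1.10 FPKM in hda108 and 25.1 FPKM in WT after meiosis, and 8.09 FPKM in hda108 and 166 FPKM in WT at the mitotic stage.

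Of the 10 members nearest to HDA108, 5 on each side, 1 passed the 4-fold rule. On the side of lower coordinates the nearest was AKHSDH1, which encodes an aspartate kinase and homoserine dehydrogenase of amino acid synthesis and which RefSeq gives as 1 gene for 3 of the gene models here. The model GRMZM2G365423, 138 kb before HDA108, had 11.6 FPKM in hda108 and 12.7 FPKM in WT after meiosis, and 14.4 FPKM in hda108 and 7.25 FPKM in WT at the mitotic stage. Over all 3 models the differences ran between -0.23 and 0.90. GRMZM2G438007 had differences of 0.80 and 1.21, and GRMZM2G010834 of -0.57 and -0.67. None of these 5 was past the 4-fold rule.

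On the other side the nearest member started 658 kb from HDA108, GRMZM2G115775, with 68.4 FPKM in hda108 and 94.9 FPKM in WT after meiosis and 61.0 FPKM in hda108 and 91.7 FPKM in WT at the mitotic stage. GRMZM2G399421 (66881588 to 66883609), 898 kb from it, was the nearest gene past the rule. It had 18.6 FPKM in hda108 and 391 FPKM in WT after meiosis, 21.0-fold lower, and 34.7 FPKM in hda108 and 278 FPKM in WT at the mitotic stage, 8.01-fold lower. The other 3 of the 5 nearest, GRMZM2G141355, GRMZM2G030628 and GRMZM2G352132, had differences between -0.80 and 0.33. Within 1 Mb of HDA108 there were 12 members, of which 1 was lower at both stages and 0 were read in 1 genotype alone. Within 5 Mb 3 of 65 were lower at both stages, 1 was higher and 2 were read in WT alone. Within 20 Mb the counts were 11, 1 and 6 of 243, which is 4.53%, 0.412% and 2.47%, against 3.57%, 0.722% and 0.0985% of all genes. Of these 243, 9.88% passed the rule in post-meiotic anthers, against 6.16% of all genes. In mitotic-stage anthers 7.82% of them passed it, against 9.65% of all genes.

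By 10 Mb bins, genes read in WT alone formed 2 groups. Bins between 60 and 90 Mb held 2 each, among 63, 66 and 44 members. Bins between 90 and 130 Mb held 0 among 153 members. Those between 130 and 180 Mb held 2, 1, 1, 2 and 3, among 55, 71, 119, 139 and 184 members. The first bins of the region, up to 60 Mb, held 0 among 27 and 53 members. In all, 6 of the 14 bins of the region held 2 or more such genes. None of the 182 bins with at least 20 genes on the other chromosomes did, and 7 of these held 1. The rest of chromosome 4 had 1 in 2 of its 11 bins.

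Genes lower at both stages were found in every bin of the region. Their share was above the 3.57% of all genes in 11 of the 14 bins and ran between 1.56% at 120 to 130 Mb and 7.91% at 160 to 170 Mb, with a median of 5.11%. Over the 182 bins of the other chromosomes it ran between 0% and 11.6%, with a median of 3.34%. Each bin of the region thus lay inside the range seen elsewhere. The largest share of higher members was at 100 to 110 Mb, with 2 of 22.

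**Figure D4:**
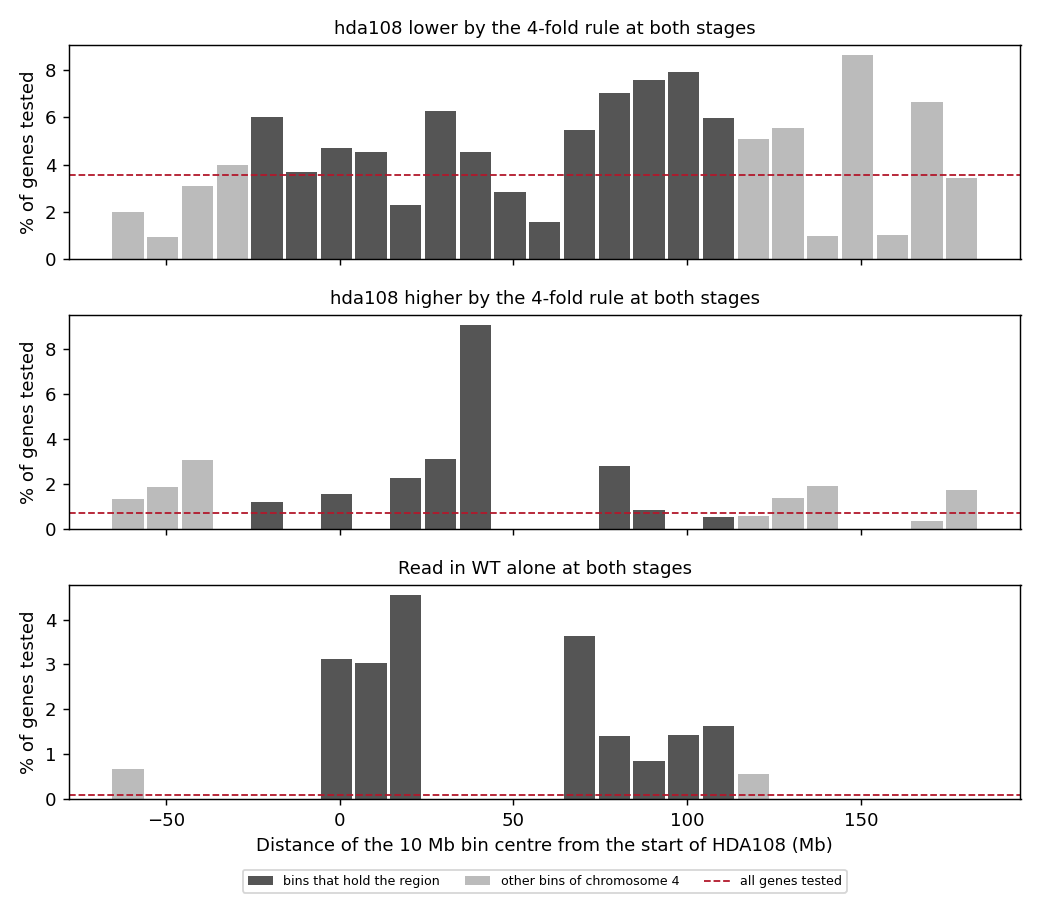
Share of the genes tested in each 10 Mb bin of chromosome 4 that were lower (top) or higher (middle) in hda108 by the 4-fold rule at both stages, or read in WT alone (bottom), against the distance of the bin centre from HDA108; dark bars are bins that hold the region (the first also holds genes outside it), light bars the rest of the chromosome, and the dashed line all genes tested. In the region, genes read in WT alone lie at 60 to 90 and 130 to 180 Mb, a division that was not tested, and lower genes are spread along the chromosome.

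The lower share was larger for genes more abundant in WT, in the region, in the rest of chromosome 4 and on the 9 other chromosomes pooled. This rise is partly set by the method, because the WT level is itself a term of the difference. With the pseudocount of 1, genes with a WT mean under 1 FPKM cannot be lower at both stages, and 0% were in each part. The members were therefore also set beside genes of like level. Of members with a mean of 1 to 10 FPKM over the 2 WT groups, 6 of 447 were lower at both stages, 1.34%, against 0.216% on the 9 other chromosomes. Between 10 and 100 FPKM the share was 8.24%, 30 of 364, against 3.52%. At 100 FPKM and above it was 29.7%, 19 of 64, against 27.5%. The rest of chromosome 4 had 0.313%, 4.31% and 31.8% in the same classes. Of the lower members, 4 of the 6 in the lowest class and 6 of the 30 in the middle class are genes read in WT alone. Without genes read in WT alone the shares were 0.457% in the region, 0.314% in the rest of chromosome 4 and 0.206% on the 9 other chromosomes at 1 to 10 FPKM. Between 10 and 100 FPKM they were 6.70%, 4.31% and 3.52%.

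**Figure D5:**
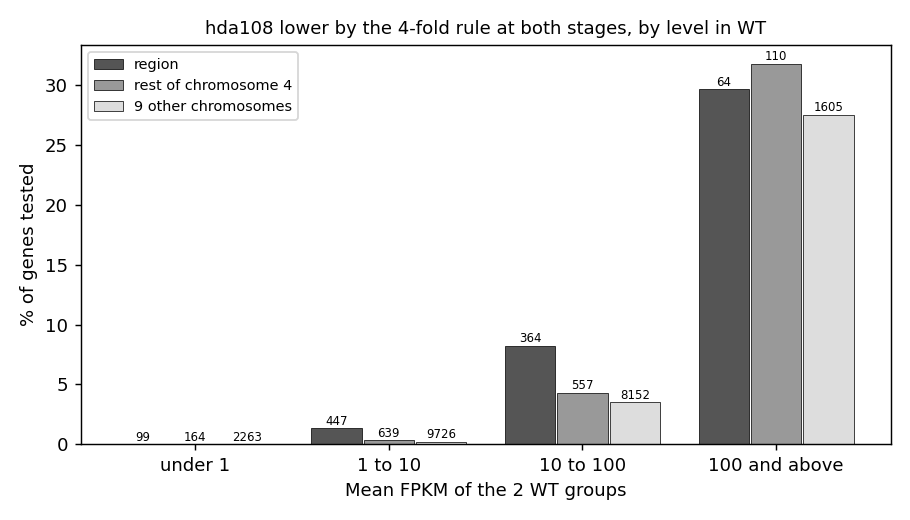
Share of genes lower in hda108 by the 4-fold rule at both stages, by the mean FPKM of the 2 WT groups, for the region (dark), the rest of chromosome 4 (middle) and the 9 other chromosomes (light); the number above each bar is the count of genes tested in that class. The bars of the region stand above the others at 1 to 10 FPKM (1.34% against 0.216% on other chromosomes) and 10 to 100 FPKM (8.24% against 3.52%), and near those of the other parts at 100 FPKM and above. Of the lower members in the first of these classes, 4 of 6 are genes read in WT alone.

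A gene name was available for 100 members, of which 1% was higher and 4% were lower at both stages, near the 0.722% and 3.57% of all genes tested, and 54 stayed within a difference of 1 at both. None was read in 1 genotype alone. LIM7, named as a LIM-domain protein gene, had 52.1 FPKM in hda108 and 477 FPKM in WT after meiosis, and 129 FPKM in hda108 and 1086 FPKM in WT at the mitotic stage. CK2 (GRMZM2G347047) was 7.72-fold lower after meiosis and 8.77-fold lower at the mitotic stage. The MADS-box gene ZAG5 had 0.203 FPKM in hda108 and 9.97 FPKM in WT after meiosis, and 1.09 FPKM in hda108 and 7.48 FPKM in WT at the mitotic stage. MIR169i, a precursor of the microRNA family that targets NF-YA transcription factor transcripts, was listed at 0 in hda108 against 5.36 FPKM in WT after meiosis, and had 17.2 FPKM in hda108 and 114 FPKM in WT at the mitotic stage. These 4 were the named members lower at both stages.

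The other 4 of the 8 named members with the largest mean difference passed the rule at 1 stage. ATPP2-B1 was 37.9-fold lower at the mitotic stage, with 0.787 FPKM in hda108 and 29.9 FPKM in WT, and had 3.25 FPKM in hda108 and 15.7 FPKM in WT after meiosis. CNX5, of molybdenum cofactor synthesis, had 1.86 FPKM in hda108 and 21.9 FPKM in WT after meiosis, and 2.78 FPKM in hda108 and 11.7 FPKM in WT at the mitotic stage. The cell number regulator gene CNR2 had 10.2 FPKM in hda108 and 0.537 FPKM in WT after meiosis, 19.0-fold higher, and 4.48 FPKM in hda108 and 0.553 FPKM in WT at the mitotic stage. HIT2 was 21.1-fold higher after meiosis and 5.85-fold higher at the mitotic stage. A single named member was higher at both stages, ysl14A, of a family of metal transporters. It had 17.4 FPKM in hda108 and 3.21 FPKM in WT after meiosis, and 9.28 FPKM in hda108 and 1.03 FPKM in WT at the mitotic stage.

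At the other end, 4 named members had nearly the same level in both genotypes. Rbx1, the RING subunit of cullin ubiquitin ligases, had 32.5 FPKM in hda108 and 34.7 FPKM in WT after meiosis, and 28.1 FPKM in hda108 and 28.6 FPKM in WT at the mitotic stage. SnRK2.6, an abscisic acid signalling kinase, had 22.6 FPKM in hda108 and 20.9 FPKM in WT after meiosis, and 23.4 FPKM in hda108 and 21.9 FPKM in WT at the mitotic stage. kan3, of the KANADI family of leaf polarity regulators, and MYBR64 had differences between -0.17 and 0.06. Of well-known maize genes, chosen after their values were seen, the MADS-box gene zmm19, the gene of the tunicate1 locus, had 12.3 FPKM in hda108 and 18.8 FPKM in WT after meiosis, and 9.65 FPKM in hda108 and 10.8 FPKM in WT at the mitotic stage. The meristem receptor gene fea2 had 2.59 FPKM in hda108 and 1.35 FPKM in WT after meiosis, and 1.47 FPKM in hda108 and 0.939 FPKM in WT at the mitotic stage.

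The stages were also compared in WT, where the genotype plays no part. By the same rule 8 members were higher and 18 lower in mitotic-stage than in post-meiotic anthers, 0.821% and 1.85%, where 1.35% and 1.46% of all genes tested were. The 15 genes read in WT alone included 1 of these, GRMZM2G140774, which was higher at the mitotic stage.

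The ends of the window are set by position. Just inside, GRMZM2G095631 (46192928) had differences of -0.21 and 0.32, and GRMZM2G089017 (179954083) of 1.38 and -0.12. Just outside, GRMZM2G355806 (45694451) had differences of -0.72 and 0.12, and GRMZM2G079796 (180085455) of 0.46 and 0.47.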

How the data were processed

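Total RNA of 8 anther libraries was depleted of ribosomal RNA and sequenced strand-specifically, per the labels' protocols. Tools listed in the submitters' processing notes, without roles, are Cuffdiff 2.2.1, Cufflinks, TopHat2 2.0.13, SAMtools, Trimmomatic 0.33 and CASAVA 1.8, and the genome build is B73 RefGen_v3. Each gene has 1 FPKM value in each group, as the authors deposited it per the file headers, and the sources used here do not give how libraries were combined or groups scaled. Columns headed as homozygous were read as hda108/hda108. The depth is unknown, so no counting interval is given.

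Genes with at least 1 FPKM in any group were kept. The planned fit with limma needs single libraries and was not run. A pseudocount of 1 was used. Positions are the authors', and whether starts count from 0 or 1 is not stated. Of the members, 61 share their position with another gene. Names came from RefSeq (assembly Zm-B73-REFERENCE-NAM-5.0), which matched 645 of 974 members. Markers were matched by symbol alone. Genes were named by rule: the 5 nearest on each side of HDA108, the 6 largest higher and 6 largest lower differences at both stages with at least 5 FPKM, the 8 most abundant read in 1 genotype, the 8 largest and 4 smallest differences among named members, and the ends of the window. Any further gene was picked with its values in view. The members, lists and rules were chosen with earlier results of these data known. Python 3.11.15, numpy 2.4.6, pandas 2.3.3 and matplotlib 3.10.9 were used. The calls were also run on simulated data with small noise and large changes, both set in advance. That run checks the code alone and does not measure errors of the calls in these data. Other scalings, pseudocounts, filters, size rules, bin widths, windows and levels near 0 were tried.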

Additional observations from a re-analysis of the deposited data

Results flagged for a closer look

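Of the members, 2 had genotype differences of at least 1 in size and of opposite sign at the 2 stages, a contrast that was not tested because each group has 1 value. No count of such genes is given outside the region, so whether 2 of 974 is more than elsewhere was not tested. GRMZM2G084195, a histone H4 gene (chromosome 4, 156508359 to 156509901), had 11.5 FPKM in hda108 and 3.87 FPKM in WT after meiosis, a difference of 1.36, and 5.78 FPKM in hda108 and 15.0 FPKM in WT at the mitotic stage, a difference of -1.24. GRMZM2G141036 had 2.19 FPKM in hda108 and 0.301 FPKM in WT after meiosis, and 1.45 FPKM in hda108 and 4.91 FPKM in WT at the mitotic stage, with differences of 1.29 and -1.27.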

How the results depend on the processing

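No paired analysis was possible because the deposited values hold 1 value per group, and for the same reason no replicate could be left out. Of 106 alternative values, 71 were labelled as kept, among them the 45 members lower at both stages without genes read in WT alone. A count was labelled so within a set fold of the reported one, so a total can be kept while its directions change. The mitotic total, 116 as deposited and 164 after rescaling, was labelled as kept, though 98 were lower as deposited and 130 higher after rescaling. With no filter most counts could not change, because genes under 1 FPKM cannot pass the rule. The 71 are therefore not separate checks. After rescaling, higher members numbered 39 after meiosis, 130 at the mitotic stage and 24 at both, lower members 34 at the mitotic stage and 24 at both, and the medians were 0.442 and 0.963. With quantile normalization the medians were 0.015 and 0.032. With a pseudocount of 0.1, 156 members passed after meiosis (53 higher), 195 at the mitotic stage (54 higher) and 114 at both (28 higher and 86 lower). These were 16.02%, 20.02% and 11.7% of the members, against 11.12%, 16.51% and 7.23% of all genes. With a 2-fold rule the counts were 264 (89 higher, 175 lower), 343 (104 and 239) and 198 (48 and 150). Those were 27.1%, 35.22% and 20.33% of the members, against 20.35%, 31.22% and 14.06% of all genes. For higher genes at the mitotic stage the 2-fold shares were near each other, 10.68% against 10.43%. The cause of these shifts was not tested, but a smaller pseudocount or threshold lets more genes pass by construction. With no filter on low values the mitotic median was 0.000. Of genes with at least 5 FPKM, 10 members were read in 1 genotype alone, 1 in hda108 and 9 in WT. These were 0.14% and 1.26% of the members, against 0.0394% and 0.0563% of all genes. With 0.5 FPKM counted as near 0 there were 38, 13 in hda108 and 25 in WT, and the share in WT was 2.57% of the region against 0.575% of all genes. The share in hda108 was then nearer that of all genes, 1.33% against 0.989%. Within 20 Mb of HDA108, which leaves fewer genes, 12 members passed at both stages, 1 higher and 11 lower. The share of lower genes at both stages in the region stayed above that of all genes, with 2.46% against 1.35% after rescaling and 4.0% against 2.21% with quantile normalization. Genes read in WT alone numbered 14 after rescaling and 17 with quantile normalization.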
